A study of Mus musculus with 6 samples.

Results

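Expression of 47 genes for DNA replication and deoxynucleotide supply was examined in unstimulated bone marrow-derived macrophages (BMDMs) with and without *Acly*, the gene of ATP citrate lyase, which makes cytosolic acetyl-CoA from citrate. The 47 genes are a named list grouped by role, namely the licensing of replication origins, the MCM ring of the replicative helicase, origin firing, the sliding clamp and its loader with the single-strand binding complex, primase and polymerases, Okazaki fragment maturation, deoxynucleotide supply, and chromatin assembly with upkeep of DNA methylation. They are 47 of the 24562 gene symbols in the count table, and all 47 were among the 11470 genes that passed the filter on low counts. This list and the other gene lists were chosen with earlier results of these data known. The shares of all genes set beside them are therefore descriptive and not an independent test.

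The study sequenced polyadenylated RNA of BMDMs from female mice in 3 control (AclyM-WT) and 3 AclyM-KO libraries, all naive, that is, grown without LPS or IL-4. In AclyM-KO mice, on a C57BL/6J background, exon 9 of *Acly* is flanked by loxP sites and removed by Cre recombinase driven by the *Lyz2* promoter. Controls are described for the bone marrow donors of the study as Cre-negative *Acly* fl/fl littermates, and whether the controls of these libraries carry the floxed allele is not stated separately. Mice for in vitro work were 8 to 14 weeks old, with no separate age given for these libraries, and the legends of the study call such replicates technical replicates of 3 pooled mice, so that every error and p below measures the spread between these libraries only.

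*Lyz2*-Cre acts in monocytes, macrophages and neutrophils as these cells mature, and little in early progenitors, so that the bone marrow seeded for culture can hold cells with an intact gene. *Acly* itself had 220.4, 233 and 236 CPM (counts scaled to a common library size after TMM normalization) in control libraries and 93.3, 98.9 and 98.3 CPM in AclyM-KO libraries, a log2 fold change of -1.25 (SE 0.066, adjusted p = 5.6e-07). The count covers the whole transcript and not the deleted exon alone. Depth, as the sum of transcript counts, ran from 19327459 to 23582992 in 5 of the libraries and reached 44507233 in AclyM-KO replicate 2, which is 2.18 times the mean of the other 5, and the counts of genes are therefore also given without it.

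As background, origins of replication are licensed in G1, when the origin recognition complex, *Cdc6* and *Cdt1* load the MCM ring onto DNA. Kinases then fire the origins in S phase, *Cdc45* and the GINS complex turn the ring into an active helicase, and the polymerases copy the strands on a sliding clamp while ribonucleotide reductase and thymidylate synthase provide deoxynucleotides. Most of these genes are transcribed around the G1/S transition under E2F factors, and BMDMs, which grow in medium with macrophage colony-stimulating factor, keep dividing for part of their culture.

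Of the 47 genes, 14 were higher in AclyM-KO than in control BMDMs and 0 were lower at an adjusted p of 0.05 or less in edgeR's quasi-likelihood test. Over all genes tested the same rule called 6.7% higher and 5.65% lower. The 14 were *Uhrf1*, *Cdc45*, *Pole*, *Rrm2*, *Mcm5*, *Mcm10*, *Tyms*, *Rrm1*, *Pcna*, *Rpa2*, *Rfc5*, *Dbf4*, *Chaf1a* and *Mcm6*, with log2 fold changes from 0.38 for *Mcm6* to 0.86 for *Uhrf1*. At an unadjusted p under 0.05, 33 of the 47 were higher and 0 were lower, beside 13.9% and 13.3% of all genes tested. The median log2 fold change of the 47 was 0.38, beside 0.00 for all genes tested, and 45 of them had a fold change above 0, which is 95.7% beside 50.03% of all genes. In 29 of the 47, every AclyM-KO library lay above every control library, a pattern found in 16.3% of all genes tested, and the opposite pattern was seen in 0 of the 47, beside 16.6% of all genes. Since these are bulk cultures, more cells that express a gene and more of its RNA per cell cannot be told apart.

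The size of the difference varied between the AclyM-KO libraries. Relative to the mean of the control libraries, the median gene of the 47 was higher by 0.19 on the log2 scale in AclyM-KO replicate 1, by 0.59 in replicate 2 and by 0.28 in replicate 3, while the control libraries lay between -0.02 and 0.03. Of the 47 genes, 42 had their highest value in AclyM-KO replicate 2, as did 28.7% of all genes tested, and 41 had a larger SD over AclyM-KO than over control libraries, as did 69.4% of all genes. AclyM-KO replicates 1 and 3 both lay above all control libraries for 30 of the 47 and for 23.0% of all genes. Without replicate 2, 14 of the 47 were again higher and 0 lower, beside 9.56% of all genes called higher, and the median log2 fold change was 0.25. Of these 14, 13 were shared with the full comparison, *Tyms* being replaced by *Dnmt1*, so that the counts by role given below changed only to 2 of 5 for deoxynucleotide supply and 3 of 4 for chromatin and methylation. The summed level of the 47 genes was 1287, 1357 and 1339 CPM in control and 1505, 1972 and 1602 CPM in AclyM-KO libraries, which is 0.133% of the total in control and 0.169% in AclyM-KO libraries.

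**Figure D1:**
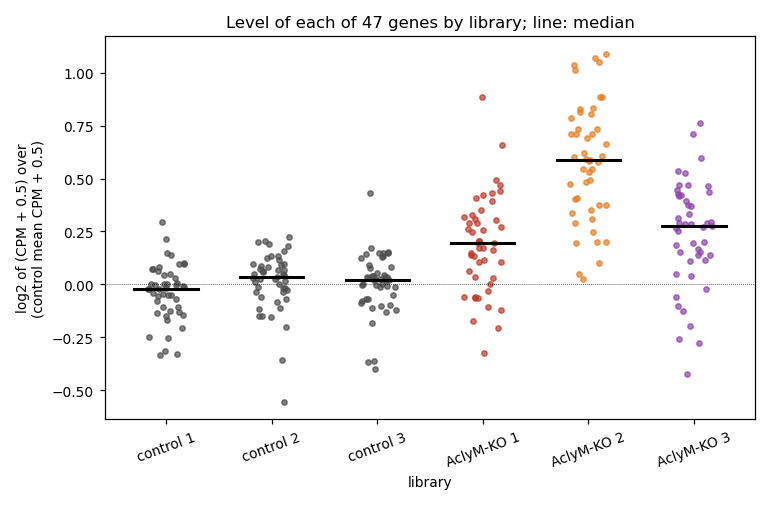
Level of each of the 47 genes in each of the 6 libraries (one point per gene), as log2 of (CPM + 0.5) over the control mean (CPM + 0.5), with a line at the median. The medians are -0.02, 0.03 and 0.02 in control and 0.19, 0.59 and 0.28 in AclyM-KO libraries, and AclyM-KO replicate 2 stands highest.

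**Figure D2:**
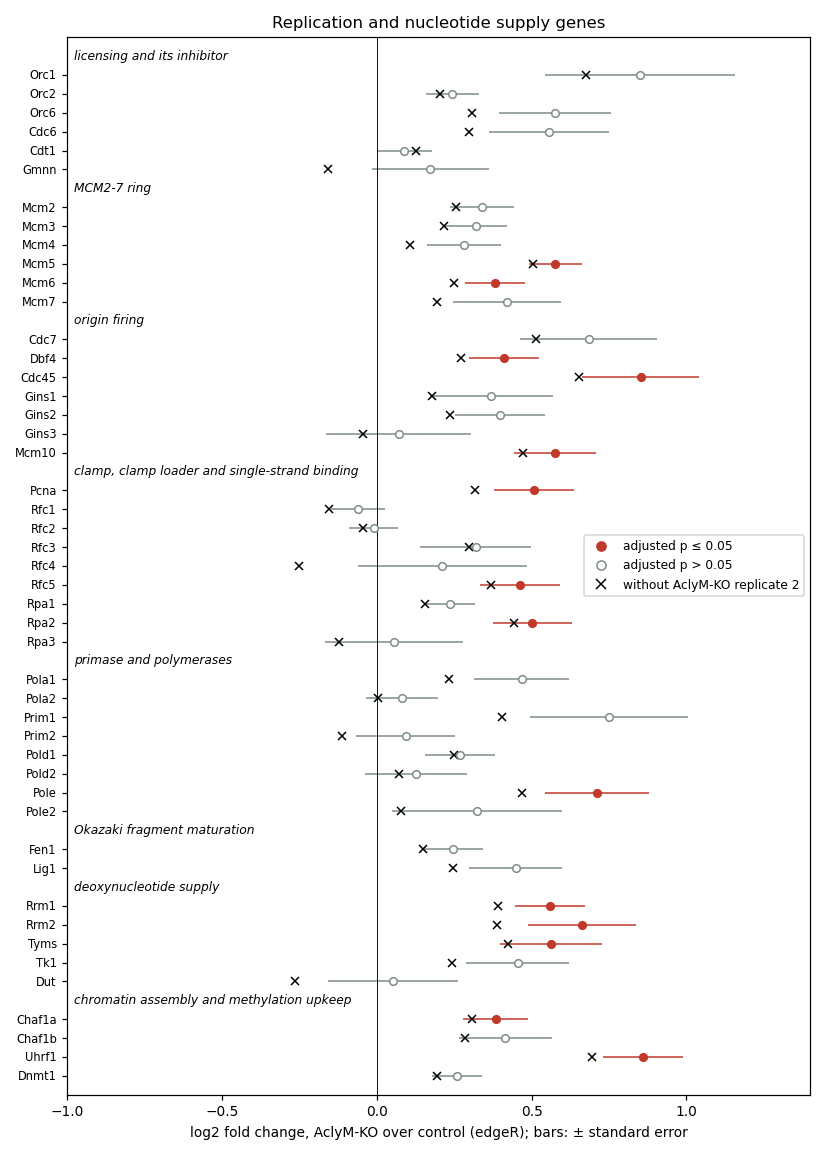
The log2 fold change (AclyM-KO over control, edgeR) of the 47 genes by role, with bars for ± 1 standard error, filled points for an adjusted p of 0.05 or less, and crosses for the value without AclyM-KO replicate 2. The 14 filled points all lie right of 0, and their crosses do too.

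The start regions of the members, called or not, are described to give their sequence context. RefSeq promoter windows on GRCm38.p6, from 250 bases before to 50 bases after the annotated start, were present for 40 of the 47 genes, in 50 windows since some genes have several starts. *Gmnn*, *Mcm4*, *Gins1*, *Gins2*, *Rfc2*, *Prim2* and *Pole* had no entry. Both strands were searched for the E2F type words TTTCCCGC, TTTCGCGC, TTTGCCGC and TTTGGCGC, for CCAAT, which is the NF-Y type word, and for TTTGAA, a word of the cell cycle homology region (CHR) type. E2F type words stood in 30% of the 50 windows, beside 4.10% of the 11700 windows of tested genes and 2.26% of all 32851 windows. CCAAT stood in 58% of the 50 windows, beside 37.8% and 37.4%, and TTTGAA in 18%, beside 12.1% and 17.9%.

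The windows of *Uhrf1*, *Cdc45* and *Rrm2* are printed because these genes had the largest log2 fold changes among called members with an entry, and those of *Mcm5* and *Mcm6*, chosen after the search, because they are the called members with an E2F type word in the printed window. Capitals mark E2F type words and CCAAT or its reverse complement ATTGG, and distances count bases before the annotated start.
Mcm5: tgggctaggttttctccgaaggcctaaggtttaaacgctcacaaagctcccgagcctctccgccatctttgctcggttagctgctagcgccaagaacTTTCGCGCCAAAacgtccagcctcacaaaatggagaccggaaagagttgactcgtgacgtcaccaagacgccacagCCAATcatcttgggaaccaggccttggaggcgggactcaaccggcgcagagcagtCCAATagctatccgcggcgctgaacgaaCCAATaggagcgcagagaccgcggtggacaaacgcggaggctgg
Mcm6: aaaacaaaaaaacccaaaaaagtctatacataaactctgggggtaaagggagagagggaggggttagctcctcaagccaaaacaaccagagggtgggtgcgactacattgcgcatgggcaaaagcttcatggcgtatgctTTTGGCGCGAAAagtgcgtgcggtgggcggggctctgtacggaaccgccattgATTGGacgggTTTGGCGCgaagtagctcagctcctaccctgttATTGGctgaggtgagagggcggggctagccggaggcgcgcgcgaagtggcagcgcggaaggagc
Uhrf1: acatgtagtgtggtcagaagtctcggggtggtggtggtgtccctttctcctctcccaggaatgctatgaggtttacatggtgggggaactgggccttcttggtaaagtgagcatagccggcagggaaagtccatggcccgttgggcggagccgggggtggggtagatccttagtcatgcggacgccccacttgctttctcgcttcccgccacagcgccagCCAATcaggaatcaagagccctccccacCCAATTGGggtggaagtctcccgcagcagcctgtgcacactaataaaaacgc
Cdc45: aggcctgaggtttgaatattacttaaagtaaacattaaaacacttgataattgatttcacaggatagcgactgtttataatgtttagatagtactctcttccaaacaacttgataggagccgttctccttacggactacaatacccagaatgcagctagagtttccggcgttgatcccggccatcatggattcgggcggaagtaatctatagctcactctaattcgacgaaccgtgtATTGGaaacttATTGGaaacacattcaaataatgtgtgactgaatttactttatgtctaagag
Rrm2: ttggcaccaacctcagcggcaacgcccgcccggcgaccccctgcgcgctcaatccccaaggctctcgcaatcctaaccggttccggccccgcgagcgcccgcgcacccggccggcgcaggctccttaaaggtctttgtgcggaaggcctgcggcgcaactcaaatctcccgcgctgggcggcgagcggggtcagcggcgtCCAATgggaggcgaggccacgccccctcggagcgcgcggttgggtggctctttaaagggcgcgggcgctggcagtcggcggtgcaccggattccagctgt

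*Mcm5* (chr8:75109259-75109558 on the plus strand) had overlapping E2F type words 153 and 149 bases before the start and CCAAT words 77 and 22 bases before it and 6 bases after it. In *Mcm6* (chr1:128359656-128359955 on the minus strand), E2F type words lay 110, 106 and 47 bases before the start, the pair farther upstream overlapping, and CCAAT words lay 57 and 14 bases before it. *Uhrf1* (chr17:56303087-56303386 on the plus strand) had 3 CCAAT words, a pair of which overlap at the start, and no E2F type word in this window, although a second window of the gene has one. *Cdc45* (chr16:18811923-18812222 on the minus strand) had CCAAT words 13 and 2 bases before the start, and *Rrm2* (chr12:24708004-24708303 on the plus strand) had a CCAAT word 50 bases before it. The *Cdc45* window also held 2 TTTGAA words, counting both strands, which are not in capitals. The 15 genes with an E2F type word in any window had a median log2 fold change of 0.38, with 3 called, beside 0.42 and 10 called in the 25 genes with an entry and no such word. These matches are descriptions of the letters only, and binding was not measured.

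Of the 6 genes for origin licensing, 0 were called. Beside the 6.7% of all genes called higher, a set of this size can hold 0 calls without differing from all genes. All 6 had a log2 fold change above 0, with a median of 0.40. The same 6.7% stands beside each count by role below. *Orc1* and *Orc6*, subunits of the origin recognition complex, had log2 fold changes of 0.85 (adjusted p = 0.095) and 0.58 (adjusted p = 0.06), and *Orc2* of the same complex had 0.24 (adjusted p = 0.087). *Cdc6*, the ATPase that helps to load the MCM ring, had 0.56 (adjusted p = 0.085). *Cdt1*, its partner in loading, had 0.09 (adjusted p = 0.57), and *Gmnn*, which encodes the *Cdt1* inhibitor geminin, had 0.17 (adjusted p = 0.61). The AclyM-KO libraries all lay above the control libraries for *Orc2*, *Orc6* and *Cdc6*, and the groups overlapped for the other 3. *Orc6* and *Cdc6* had 0.31 and 0.30 without AclyM-KO replicate 2. *Orc1* was the lowest of the 47 genes, at 2, 1.79 and 1.17 CPM in control and 3.48, 3.48 and 1.83 CPM in AclyM-KO libraries. *Gmnn* had 15.8, 16.7 and 16.6 CPM in control and 15.7, 24.7 and 13.6 CPM in AclyM-KO libraries, so that only AclyM-KO replicate 2 lay above the control libraries, and without it the log2 fold change was -0.16 (adjusted p = 0.38).

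The 6 subunits of the MCM ring, the core of the replicative helicase, all had a log2 fold change above 0, and 2 of them, *Mcm5* and *Mcm6*, passed the threshold. *Mcm5* had 35.5, 36.4 and 36.1 CPM in control and 50.1, 58.4 and 52.0 CPM in AclyM-KO libraries, with control libraries close together and every AclyM-KO library above them. Its log2 fold change was 0.58 (SE 0.086, adjusted p = 0.0018), and 0.51 (adjusted p = 9.4e-05) without AclyM-KO replicate 2. *Mcm6* had 89.8, 88.7 and 91.1 CPM in control and 104, 136 and 109.7 CPM in AclyM-KO libraries, again without overlap, and its log2 fold change of 0.38 (SE 0.10, adjusted p = 0.025) was 0.25 (adjusted p = 0.0054) without that library. *Mcm2* had 32.2, 33.9 and 38.2 CPM in control and 38.9, 48.5 and 43.9 CPM in AclyM-KO libraries, a log2 fold change of 0.34 (SE 0.10, adjusted p = 0.053). *Mcm3* had 43.6, 49.3 and 47.7 CPM in control and 50.8, 65.8 and 58.3 CPM in AclyM-KO libraries, a log2 fold change of 0.32 (SE 0.10, adjusted p = 0.06). For *Mcm2* and *Mcm3* the groups did not overlap either, and the adjusted p lay just outside the threshold. *Mcm4* had 44.1, 44.5 and 48.4 CPM in control and 47.8, 66.9 and 50.4 CPM in AclyM-KO libraries, where AclyM-KO replicate 1 lay below the highest control library, and its log2 fold change was 0.28 (adjusted p = 0.15). *Mcm7* had 22.8, 19.7 and 25.7 CPM in control and 21.8, 38.1 and 30.0 CPM in AclyM-KO libraries, where AclyM-KO replicate 1 lay within the control range, and its log2 fold change was 0.42 (adjusted p = 0.15). The values of *Mcm4* and *Mcm7* were 0.11 and 0.19 without AclyM-KO replicate 2. Some 13.0% of the exonic bases of *Mcm7* also lie in genes on the opposite strand. Although the subunits assemble in equal numbers, their RNA levels per kilobase of transcript differed in control libraries, from 30.9 ± 0.41 CPM per kb (SD, n = 3) for *Mcm6* to 7.68 ± 1.01 CPM per kb for *Mcm7*. *Mcm3* at 15.5 ± 0.98 and *Mcm4* at 12.7 ± 0.67 CPM per kb lay between them, and *Mcm5* at 10.6 ± 0.14 and *Mcm2* at 10.3 ± 0.91 CPM per kb did not differ beyond their SD.

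Among the 7 genes for origin firing, 3 were higher in AclyM-KO, namely *Cdc45*, *Mcm10* and *Dbf4*. *Cdc45*, a subunit of the active helicase, had 5.37, 5.16 and 4.6 CPM in control and 6.96, 11 and 8.90 CPM in AclyM-KO libraries, and every AclyM-KO library lay above the control libraries. Its log2 fold change was 0.85 (SE 0.19, adjusted p = 0.013), with counts of 51 to 290 reads behind each value, and 0.65 (adjusted p = 0.017) without AclyM-KO replicate 2. Some 7.89% of the exonic bases of *Cdc45* overlap *Ufd1* on the opposite strand. *Mcm10*, a firing factor that is not part of the MCM ring, had 11.5, 12.1 and 11 CPM in control and 14.4, 19.2 and 17.7 CPM in AclyM-KO libraries, with a log2 fold change of 0.57 (SE 0.13, adjusted p = 0.016). *Dbf4*, the activating subunit of the *Cdc7* kinase, had 26.2, 27.1 and 24.8 CPM in control and 31.3, 40.3 and 31.5 CPM in AclyM-KO libraries, with a log2 fold change of 0.41 (SE 0.11, adjusted p = 0.037). The groups did not overlap for either gene, and both remained past the threshold without AclyM-KO replicate 2, at 0.47 (adjusted p = 0.015) and 0.27 (adjusted p = 0.039). *Cdc7*, the kinase itself, had 0.68 (adjusted p = 0.065) on the log2 scale from a low level of 2.88 ± 0.61 CPM in control and 4.56 ± 0.74 CPM in AclyM-KO (SD, n = 3 each). Of the GINS subunits, *Gins1* had 0.37 (adjusted p = 0.26), *Gins2* had 0.40 (adjusted p = 0.099) and *Gins3* had 0.07 (adjusted p = 0.88), values that were 0.18, 0.24 and -0.05 without AclyM-KO replicate 2. For *Gins2*, 70.7% of the exonic bases overlap *Gse1* on the opposite strand, and reads of such neighbours may be included, since the strand-specific libraries were counted with the default settings of the tool and the strand these imply is not spelled out.

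**Figure D3:**
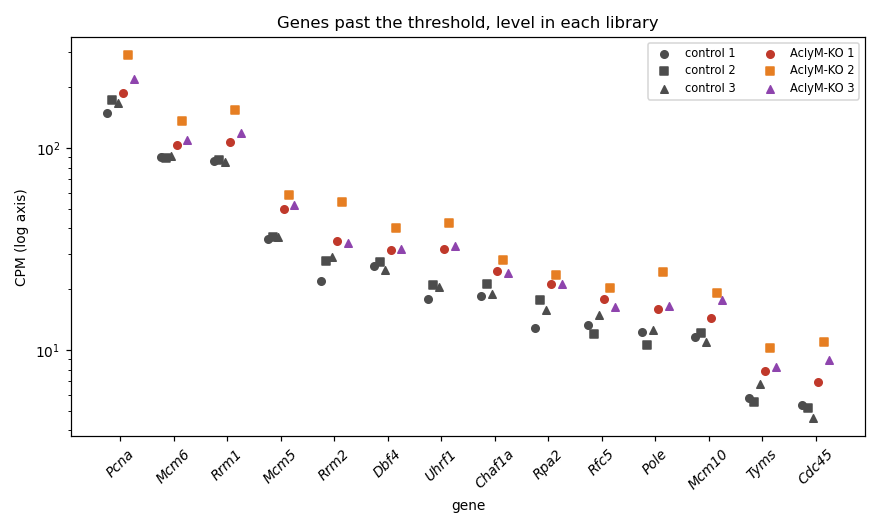
CPM of the 14 genes past the threshold in each library, on a log axis, ordered by mean level from Pcna to Cdc45. For each gene every AclyM-KO point lies above every control point, and AclyM-KO replicate 2 is the highest of the 6.

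The sliding clamp gene *Pcna* had the highest level per length of the 47 genes, at 107 ± 8.55 CPM per kb in control and 152 ± 33.6 CPM per kb in AclyM-KO libraries (SD, n = 3 each). In CPM it had 148, 173 and 167 in control and 188, 287 and 218 in AclyM-KO libraries, without overlap. Its log2 fold change was 0.51 (SE 0.13, adjusted p = 0.025), and 0.32 (adjusted p = 0.0033) without AclyM-KO replicate 2. Of the 5 subunits of the clamp loader, which places the clamp on DNA, 1 was called, *Rfc5*, with 13.3, 12 and 14.9 CPM in control and 17.9, 20.4 and 16.4 CPM in AclyM-KO libraries and a log2 fold change of 0.46 (SE 0.13, adjusted p = 0.037). For this gene 17.8% of the exonic bases overlap *Wsb2* on the opposite strand. *Rfc1*, the large subunit, had -0.06 (adjusted p = 0.71) and *Rfc2* had -0.01 (adjusted p = 0.95), and these were the pair of genes among the 47 with a log2 fold change below 0. *Rfc3* had 0.32 (adjusted p = 0.28) and *Rfc4* had 0.21 (adjusted p = 0.67). Of the single-strand binding complex RPA, *Rpa2* was called, with 12.9, 17.8 and 15.8 CPM in control and 21.2, 23.5 and 21.1 CPM in AclyM-KO libraries and a log2 fold change of 0.50 (SE 0.13, adjusted p = 0.024). The large subunit gene *Rpa1* had 0.24 (adjusted p = 0.082) with AclyM-KO libraries above control libraries, and *Rpa3*, the smallest subunit, had 0.06 (adjusted p = 0.91). The values of *Rfc4*, *Rpa1* and *Rpa3* were -0.25, 0.16 and -0.12 without AclyM-KO replicate 2. Both *Rfc5* and *Rpa2* stayed past the threshold without AclyM-KO replicate 2, at 0.37 (adjusted p = 0.045) and 0.44 (adjusted p = 0.016).

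Of 8 genes for primase and polymerases, 1 was called (12.5%), beside 6.7% of all genes called higher. *Pole*, the catalytic subunit of the leading strand polymerase epsilon, had 12.3, 10.6 and 12.6 CPM in control and 16.0, 24.4 and 16.6 CPM in AclyM-KO libraries, and its AclyM-KO libraries all lay above the control libraries. Its log2 fold change was 0.71 (SE 0.17, adjusted p = 0.018), and 0.47 (adjusted p = 0.012) without AclyM-KO replicate 2. *Pole2*, the second subunit of this polymerase, had 0.32 (adjusted p = 0.49) with overlapping groups. *Prim1*, the catalytic primase subunit, had 0.75 (adjusted p = 0.078) and *Prim2*, its partner, had 0.09 (adjusted p = 0.76). *Pola1*, the catalytic subunit of polymerase alpha, had 0.47 (adjusted p = 0.069), and *Pola2*, its accessory subunit, had 0.08 (adjusted p = 0.71). For the lagging strand polymerase delta, *Pold1* had 0.27 (adjusted p = 0.15) and *Pold2* had 0.13 (adjusted p = 0.67). In *Pola1*, *Prim1* and *Pold1* the groups did not overlap even though the adjusted p exceeded the threshold. Without AclyM-KO replicate 2, *Prim1* had 0.40, *Prim2* had -0.11, *Pola1* had 0.23 and *Pole2* had 0.08. The smaller values of *Pola2* and *Pold2* were then 0.003 and 0.07. Within each of these 4 pairs the gene of the catalytic subunit had the larger log2 fold change of its pair, but the difference within pairs was not tested. Okazaki fragment maturation had 0 of 2 called, a set too small to set against the 6.7% of all genes. The flap endonuclease gene *Fen1* had 0.25 (adjusted p = 0.13) and the DNA ligase gene *Lig1* had 0.45 (adjusted p = 0.075). Without AclyM-KO replicate 2 these were 0.15 and 0.25. For *Fen1*, 88.7% of the exonic bases overlap *Gm10143* on the opposite strand.

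Deoxynucleotide supply had 3 of 5 genes called. *Rrm1*, the large subunit of ribonucleotide reductase, had 86.1, 86.8 and 85.3 CPM in control and 107, 153 and 119 CPM in AclyM-KO libraries, with control libraries close together and all AclyM-KO libraries above them. Its log2 fold change was 0.56 (SE 0.11, adjusted p = 0.0083), and 0.39 (adjusted p = 1.7e-04) without AclyM-KO replicate 2. *Rrm2*, the small subunit whose protein is made in S phase, had 21.9, 27.4 and 29.0 CPM in control and 34.5, 54.0 and 33.9 CPM in AclyM-KO libraries. The log2 fold change of *Rrm2* was 0.66 (SE 0.17, adjusted p = 0.029), and 0.39 (adjusted p = 0.013) without AclyM-KO replicate 2, which lay far above the other AclyM-KO libraries, and those too lay above the control libraries. Per length, *Rrm1* stood above *Rrm2* in control, at 21.5 ± 0.20 against 11.9 ± 1.69 CPM per kb (SD, n = 3 each). *Tyms*, thymidylate synthase, had 5.82, 5.53 and 6.77 CPM in control and 7.83, 10.2 and 8.29 CPM in AclyM-KO libraries, with a log2 fold change of 0.56 (SE 0.16, adjusted p = 0.045). Although its groups did not overlap, *Tyms* did not pass the threshold without AclyM-KO replicate 2, at 0.42 (adjusted p = 0.093). *Tk1*, the cytosolic thymidine kinase of dividing cells, had 0.45 (adjusted p = 0.1) with AclyM-KO libraries above control libraries, and 0.24 without AclyM-KO replicate 2. *Dut*, which encodes dUTPase, had 0.05 (adjusted p = 0.91) with overlapping groups, and -0.27 (adjusted p = 0.34) without AclyM-KO replicate 2.

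The largest log2 fold change of the 47 genes belonged to *Uhrf1*, which binds hemimethylated DNA behind the fork and recruits the maintenance methyltransferase. It had 17.8, 21 and 20.6 CPM in control and 31.5, 42.7 and 32.7 CPM in AclyM-KO libraries, and no AclyM-KO library lay within the control range. The log2 fold change was 0.86 (SE 0.13, adjusted p = 0.0019), and 0.70 (adjusted p = 5.9e-05) without AclyM-KO replicate 2. *Dnmt1*, the methyltransferase, had 136, 147 and 129.8 CPM in control and 151, 179 and 164 CPM in AclyM-KO libraries, again without overlap. Its log2 fold change of 0.26 (SE 0.080, adjusted p = 0.055) missed the threshold, and 0.20 (adjusted p = 0.031) without AclyM-KO replicate 2 passed it. *Chaf1a*, the large subunit of chromatin assembly factor CAF-1, had 18.6, 21.3 and 18.9 CPM in control and 24.5, 27.8 and 24.1 CPM in AclyM-KO libraries, with a log2 fold change of 0.38 (SE 0.11, adjusted p = 0.037). For *Chaf1a*, 48.6% of the exonic bases overlap *Ubxn6* on the opposite strand. Its partner *Chaf1b* had 0.42 (adjusted p = 0.097), with overlapping groups.

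Several of the larger differences belonged to genes of low level. Of the 47 genes, 16 had a control mean under 10 CPM, and 2 of these, *Cdc45* and *Tyms*, were called. *Orc1*, *Prim1*, *Cdc7*, *Orc6* and *Cdc6* had log2 fold changes between 0.56 and 0.85 without being called, and all 5 were among the 16. The table lists 1 transcript for 27 of the 47 genes and several for the other 20, where reads on shared exons count for each.

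Across processing settings, 3 genes, *Mcm5*, *Rrm1* and *Uhrf1*, were called in the reported comparison and in each of the 16 alternative fits, and 20 were called in none. In 37 of the 47 the log2 fold change was above 0 in every fit. The number called was sensitive to single libraries, with 4, 4 and 3 genes when control replicate 1, 2 or 3 was left out, 24 without AclyM-KO replicate 1, and 14 without AclyM-KO replicate 2 or 3. Over all genes the share called higher moved as well, to 3.13%, 3.25% and 3.31% without control replicate 1, 2 or 3, and to 7.54%, 9.56% and 5.41% without AclyM-KO replicate 1, 2 or 3.

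**Figure D4:**
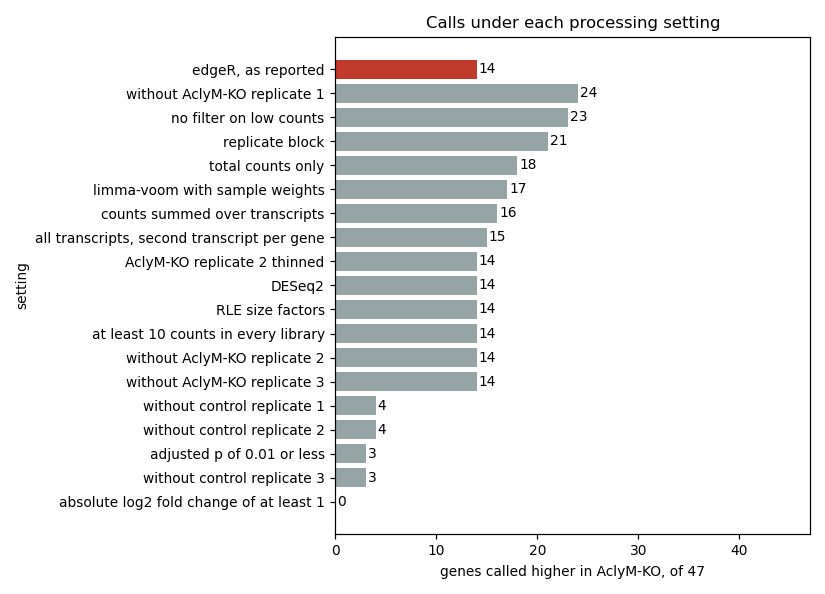
Number of the 47 genes called higher in AclyM-KO under each processing setting, as bars from 0 to at most 47. The reported fit gives 14, the settings range from 0 (when the log2 fold change must reach 1 in size) to 24 (without AclyM-KO replicate 1).

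Other genes of the same pathways were counted for comparison, against the 6.7% of all genes called higher and 5.65% called lower, or 9.56% and 8.92% without AclyM-KO replicate 2. Further replication genes numbered 34, of which 6 rose and 0 fell, and their median was 0.25 on the log2 scale. *Timeless* of the fork protection complex had 0.77 (adjusted p = 0.0085), the histone chaperone gene *Asf1b* had 0.73 (adjusted p = 0.002), and *Pole4*, an accessory subunit of polymerase epsilon, had 0.70 (adjusted p = 0.012). Among 12 further deoxynucleotide genes, whose median was 0.11, 1 was higher (8.33%) and 1 was lower, shares near those of all genes. *Dck*, the deoxycytidine kinase of salvage, had 0.52 (adjusted p = 0.036), and *Tk2*, the mitochondrial thymidine kinase, had -0.49 (adjusted p = 0.0026), opposite in sign to *Tk1*. Of 19 genes of the E2F and RB families and the MuvB, MYB and FOXM1 factors that work with them, 6 rose and 1 fell, and the median was 0.16. *Mybl2*, a MYB family gene, had 1.34 (adjusted p = 0.0055), while the atypical E2F repressors *E2f7* and *E2f8* had 0.99 (adjusted p = 0.016) and 0.75 (adjusted p = 0.016), and the lower gene was *Rbl2*, which encodes the pocket protein p130, at -0.29 (adjusted p = 0.034). Without AclyM-KO replicate 2, 5 further replication genes rose and 0 fell, 1 further deoxynucleotide gene rose and 1 fell, and 7 of the 19 rose and 1 fell. The medians of these lists were then 0.17, 0.003 and 0.10, and *Dck* had 0.31 (adjusted p = 0.019).

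Genes of mitosis, which follows S phase, were also counted. Of 30 mitotic genes, 20 rose and 1 fell, beside 6.7% and 5.65% of all genes, and their median difference was 0.61 on the log2 scale, beside 0.38 for the 47. Without AclyM-KO replicate 2, 20 again rose and 1 fell, beside 9.56% and 8.92% of all genes, and the medians were 0.44 and 0.25. The difference between the medians was not tested. *Bub1*, a checkpoint kinase, had 0.86 (adjusted p = 0.0038), the spindle motor gene *Kif11* had 0.85 (adjusted p = 0.0019) and *Aurka*, a spindle pole kinase, had 0.84 (adjusted p = 0.0021), while *Cenpa*, the centromeric histone, was lower at -0.57 (adjusted p = 0.0014).

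The cultures expressed macrophage markers, with *Adgre1*, which encodes F4/80, at 1635 ± 48.7 CPM in control and 1722 ± 90.0 CPM in AclyM-KO (SD, n = 3 each) and *Cd68* at 2411 ± 72.2 CPM in control and 2426 ± 231 CPM in AclyM-KO. Of 8 macrophage markers, 0 were higher and 4 lower in AclyM-KO, where 5.65% of all genes were lower, among them *C1qa* at -0.75 (adjusted p = 4.5e-04), *Mertk* at -0.67 (adjusted p = 0.002), and *Csf1r*, the receptor of macrophage colony-stimulating factor, at -0.48 (adjusted p = 0.039). The summed level of the 8 was 9015, 8840.2 and 8917 CPM in control and 8351, 7088 and 8192 CPM in AclyM-KO libraries, a sum in which *Csf1r* weighed most, with 3380.3, 3091 and 3239.7 CPM in control and 2813, 1733 and 2429 CPM in AclyM-KO libraries. The other 7 summed to 5634, 5749 and 5677 CPM in control and 5538, 5355 and 5763 CPM in AclyM-KO libraries, so that the groups overlapped. Relative to the control mean, the median gene of the 8 lay at -0.30, -0.24 and -0.29 on the log2 scale in AclyM-KO replicates 1, 2 and 3, with replicate 2 the least reduced by this measure and the lowest by the sum. Without AclyM-KO replicate 2, 5 of the 8 were lower, beside 8.92% of all genes, and *Csf1r* had -0.30 (adjusted p = 8.6e-04). Of 6 stem and progenitor cell markers, 1 was tested, and *Kit*, the stem cell factor receptor, had 10, 9.27 and 10.3 CPM in control and 18.6, 23.7 and 19.0 CPM in AclyM-KO libraries, a log2 fold change of 1.07 (adjusted p = 5.0e-04). The summed level of the 6 was 11, 9.72 and 10.8 CPM in control and 19.6, 25.2 and 20.1 CPM in AclyM-KO libraries, nearly all of it from *Kit*, since the other 5 summed to at most 1.55 CPM in any library. Among 10 markers of neutrophils and their precursors, 5 were tested and 1 was higher, *Mmp8* at 1.20 (adjusted p = 1.7e-05), while *Ly6g* had 2 counts in all 6 libraries together. The summed level of the 10 was 49.7, 49.8 and 52.0 CPM in control and 73.6, 79.8 and 78.9 CPM in AclyM-KO libraries, but *Mmp8* alone had 19.7, 21.8 and 20.5 CPM in control and 43.3, 50.8 and 48.3 CPM in AclyM-KO libraries. The other 9 summed to between 27.95 and 31.5 CPM in control and between 29.0 and 30.5 CPM in AclyM-KO libraries, so that *Mmp8* carried the rise of the sum, and the median gene of the 10 lay at -0.07, -0.12 and -0.10 on the log2 scale in the AclyM-KO libraries. Summed markers of B cells were at most 4.48 CPM in any library, and those of T and NK, erythroid, megakaryocyte, dendritic, mast and stromal cells at most 1.57 CPM. The part of progenitor content or of maturation in the higher level of the 47 genes was not tested.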

How the data were processed

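RNA of naive BMDMs was sequenced on an Illumina HiSeq from KAPA mRNA HyperPrep libraries (3 control, 3 AclyM-KO). Per the labels, reads were handled with CASAVA 1.8.2 and aligned to mm10 with STAR 2.5.2b. After a SAMtools filter, the authors used HOMER2 to count tags for each RefSeq transcript, and the deposited values are these raw counts, not normalized. HOMER2 was run with its defaults on strand-specific libraries. The RefSeq release is not given in the sources used here. Of 12 value columns, 6 match labelled samples and 6 were not used. RefSeq and GENCODE M21 gave symbols to all but 117 of 35745 transcripts, and the transcript with the highest total stood for each gene. Reads on shared exons can count for several transcripts, and an antisense neighbour's reads may be included.

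AclyM-KO was tested against control with edgeR 4.0.16 under R 4.3.3 (TMM, filterByExpr, quasi-likelihood test, genotype alone), with Benjamini-Hochberg adjustment over 11470 genes at 0.05. Each SE came from the F statistic, and the biological coefficient of variation came to 8.90%. Exact permutation of 3 against 3 libraries cannot give a two-sided p below 0.1. The test was tried on simulated counts. Alternatives were DESeq2 1.42.0, limma-voom (limma 3.58.1) with sample weights, RLE size factors, total counts, other filters and thresholds, other transcripts per gene, summed transcripts, a thinned AclyM-KO replicate 2, the replicate number as a block, and each library left out. The members and all gene lists were chosen with earlier results of these data known. The text names all 47 members, gives every library for called and MCM ring genes, and names at most 3 called genes per direction of the other lists. The E2F type, CCAAT and CHR type words were searched in RefSeq promoter windows on GRCm38.p6. Some marker genes are not reported here.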

Additional observations from a re-analysis of the deposited data

How the results depend on the processing

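Of the 47 genes, 14 were higher in AclyM-KO, and the number was 0 when the log2 fold change had to reach 1 in size, 3 at an adjusted p of 0.01 or less, 23 with no filter on low counts, and between 3 and 24 when each library was left out in turn. The low end of that range came without control replicate 3 and the high end without AclyM-KO replicate 1. DESeq2, RLE size factors, at least 10 counts in every library and the thinned AclyM-KO replicate 2 each gave 14, and none of the 16 alternative fits called a member lower. The number of genes called between AclyM-KO and control macrophages was 1416, beside 198 with a log2 fold change of 1 or more in size, 557 at the threshold of 0.01, 2187 with limma-voom and sample weights, and 598 to 2136 with each library left out. With no filter on low counts, 1747 of 15776 genes tested were called. These totals join genes called higher and lower. The share of all genes called higher is not given at 0.01 or with no filter. The 3 and 23 members called there therefore cannot be set beside such a share. The causes of these changes in number were not tested, except that fewer samples enter when a library is left out.

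With the replicate number as a block, 21 of the 47 genes were higher, beside 7.52% of all genes. Same-numbered libraries deviated together with correlations of 0.09, 0.11 and -0.05, so the numbers were not taken to pair the libraries.

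Sign changes occurred only in genes that were not called. With limma-voom and sample weights the log2 fold change was -0.18 for *Dut*, -0.0896 for *Gmnn*, -0.0524 for *Prim2*, -0.0874 for *Rfc4* and -0.15 for *Rpa3*, and it was -0.0105 for *Dut* with AclyM-KO replicate 2 thinned and 0.0254 for *Rfc2* with total counts only. With each library left out in turn it ranged from -0.27 to 0.18 for *Dut*, -0.18 to 0.26 for *Gins3*, -0.16 to 0.33 for *Gmnn*, -0.00724 to 0.13 for *Pola2*, -0.0174 to 0.20 for *Pold2*, -0.11 to 0.17 for *Prim2*, -0.16 to 0.000212 for *Rfc1*, -0.0437 to 0.0156 for *Rfc2*, -0.25 to 0.39 for *Rfc4* and -0.12 to 0.23 for *Rpa3*. With the sense strand alone 16% of the member windows held an E2F type word (2.21% for tested genes), and with 150 bases around the start 22% (2.27%). The libraries' number limits precision, and for genes under 10 CPM so does the depth.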
